A study of Homo sapiens with 105 samples.

Results

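The response of Vk2/E6E7 cells to the lipopeptide Pam3CSK4 was followed on 6 arrays, which were set against arrays of cells kept in growth medium alone (GM). The members were chosen by their labels, as the arrays of Pam3CSK4-treated cells, and make up 6 of the 105 arrays of the series. The whole series covered pro-inflammatory compounds (Pam3CSK4, MALP2, imiquimod, TNF-α and nonoxynol-9), cellulose gels without inflammatory activity, and GM, and asked which genes set the first kind of compound apart. RNA was measured on Affymetrix U133 Plus 2.0 arrays, which read each gene through 1 or more probesets.

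Pam3CSK4 was given at 10 µg/ml, MALP2 at 200 ng/ml and TNF-α at 40 ng/ml, each for 6 h, and GM had no compound. Each of Pam3CSK4 and MALP2 had 6 arrays, TNF-α had 5 that could be used, and GM had 53. All groups shared the same cells, a line from human vaginal epithelium immortalized with the E6 and E7 genes of a papillomavirus. It is a single line grown without the leukocytes, stroma and bacteria of the tissue, and E6 and E7 are known to act on the p53 and RB proteins that govern cell division. In the labels the arrays carry numbers of biological replicates, and nothing states which numbers stand for separate cultures. The p-values below therefore cover only the variation among arrays, part of which may be technical.

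Pam3CSK4 is a synthetic triacylated lipopeptide modelled on the lipid-anchored end of bacterial lipoproteins. It is recognized by a pair of Toll-like receptors, TLR2 with TLR1, whereas diacylated lipopeptides such as MALP2 are recognized by TLR2 with TLR6. The pair recruits the adaptors TIRAP and MYD88 and the IRAK kinases, TRAF6 and TAK1 follow, and NFκB and MAP kinases then switch on genes of chemokines, cytokines, antimicrobial proteins and inhibitors of the same pathway.

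The tissue label was checked first. KRT5 and KRT14, keratins of the basal epithelial layer, had median log2 signals of 14.37 and 14.65 in Pam3CSK4 arrays and of 14.47 and 14.73 in GM arrays. None of 9 epithelial identity genes, 11 leukocyte markers, 5 melanocyte markers and 8 reference genes passed the test in either direction. Over all probesets only 1.31% were higher and 0.859% lower at an adjusted p under 0.05. Lists this short would rarely hold a passing gene, so the count says nothing about the identity of the cells. The leukocyte marker PTPRC, which encodes CD45, had a median of 5.3 in Pam3CSK4 arrays and 4.77 in GM arrays, both below a log2 signal of 6. The summed linear signal of the 11 leukocyte markers lay between 942 and 1060 in Pam3CSK4 arrays and between 685 and 1250 in GM arrays. Of 11 fibroblast and endothelial markers 1 passed, KDR, a receptor for VEGF, with 2.72, 3.91 and 5.48 (lowest, median and highest array) with Pam3CSK4 and 2.18, 5.29 and 6.14 in GM, a difference of -1.29 (limma adjusted p = 0.0334). With sets of arrays as a block, as set out next, it no longer passed (adjusted p = 0.682).

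Arrays differed in ways that the treatments did not set. GM replicate 52 correlated with no other array above 0.0484, where all other pairs reached at least 0.835, and TNF-α replicate 6 equalled the mean of TNF-α replicates 1 to 3 within 7.67e-09, so both were left out. Arrays with 3 consecutive replicate numbers resembled each other, with a consensus correlation of 0.438 within such sets, and the Pam3CSK4 arrays formed 2 sets, replicates 1 to 3 and replicates 4 to 6. A second fit with the sets as a random block was run beside the first, and its adjusted p, called the set-block p, is given wherever it ended a call. GM replicate 15 stood apart: it was the highest GM array in 99 of the 321 probesets that were higher with Pam3CSK4, where it was the highest GM array in 1096 of all 54613. GM replicates 43, 44 and 45 were highest in 51, 15 and 49 of the 321. As a check of RNA quality, the 3′ over 5′ signal of ACTB was 0.33 ± 0.11 log2 in Pam3CSK4 arrays (SD, n = 6) and 0.43 ± 0.28 in GM arrays (SD, n = 53). It differed between the 2 sets, with 0.18 to 0.28 in Pam3CSK4 replicates 1 to 3 and 0.4 to 0.45 in replicates 4 to 6. That of GAPDH was -0.26 to -0.25 and -0.11 to -0.07. The part of RNA quality in the results was not tested.

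At an adjusted p under 0.05 in limma and a fold over 2, the rule for a called probeset, 321 probesets (0.588% of 54613) were higher and 79 (0.145%) were lower with Pam3CSK4 than in GM. The higher probesets named 225 genes and the lower ones 55. In 298 of the 321, all 6 Pam3CSK4 arrays lay above the GM median, and in 36 all 6 lay above the whole GM range. Of the 79 lower probesets, 62 had all 6 arrays below the GM median and 2 had all 6 below the GM range. The higher changes reached 6.66 on the log2 scale with a median of 1.72, and 32 of them were over 8-fold, while none of the lower ones was. A GM mean below a log2 signal of 6 was found for 90 of the 321 higher and 30 of the 79 lower probesets. With the sets as a block, 145 (0.266%) were higher and 11 (0.0201%) lower, and all of these had been called before. Without GM replicate 15 the counts were 329 (0.602%) and 80 (0.146%), of which 314 and 77 were shared.

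**Figure D1:**
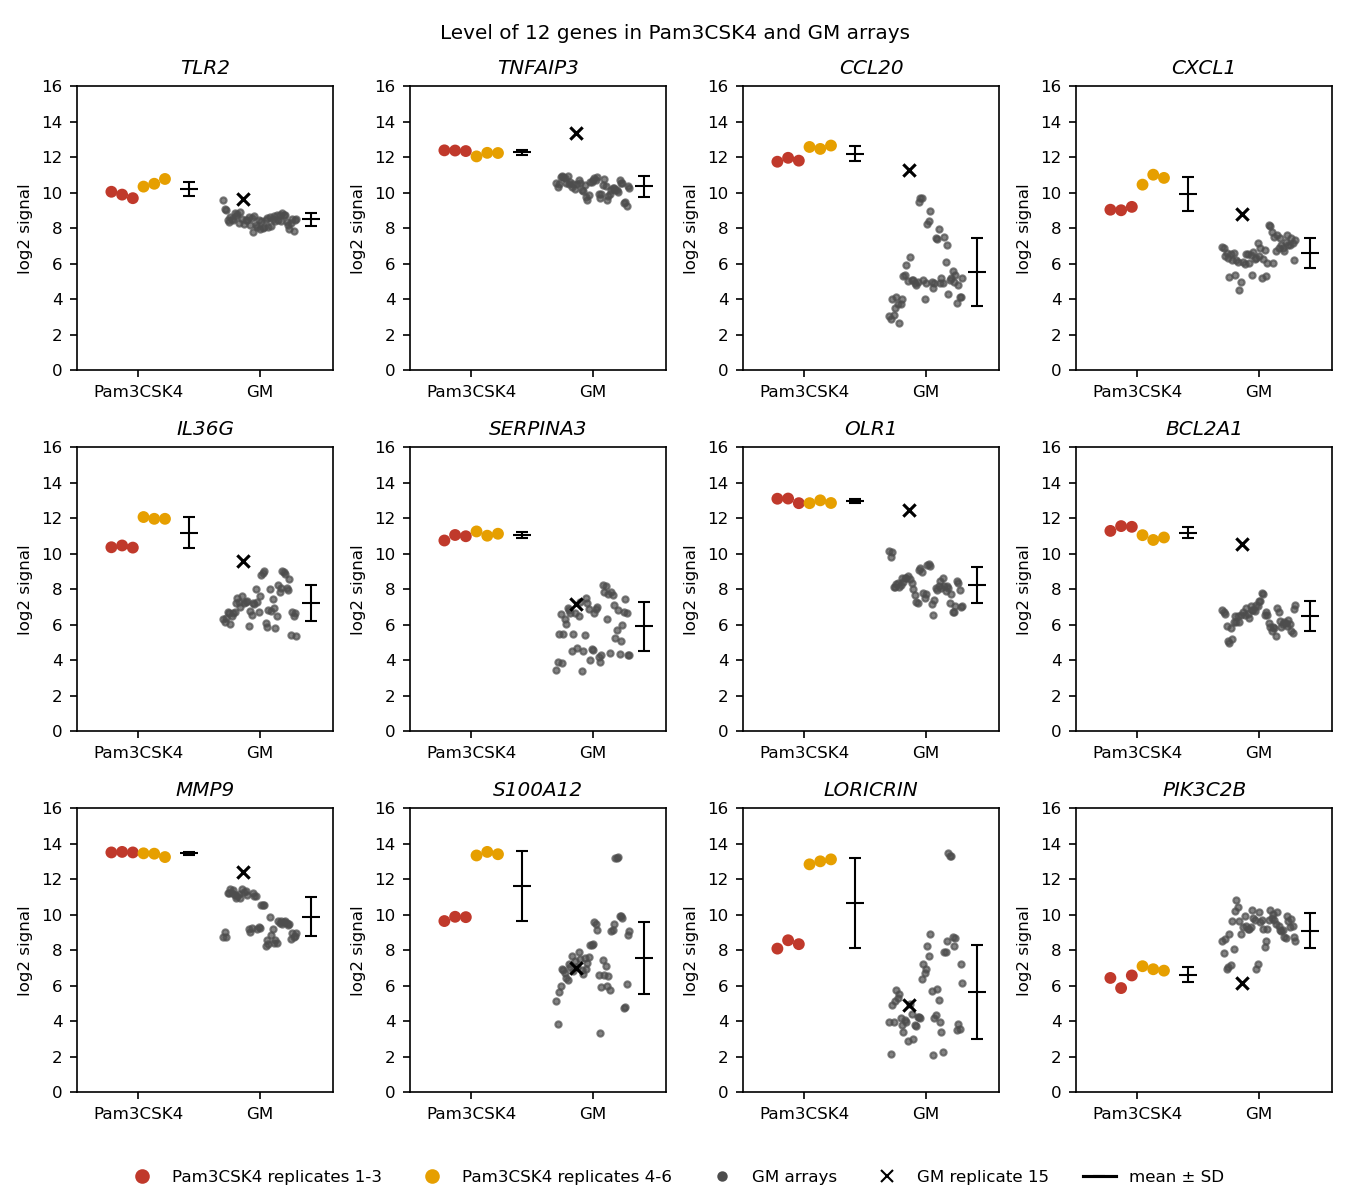
Log2 signal (y axis) of 12 genes in every Pam3CSK4 array (left) and every GM array (right), 1 point an array, with bars for the mean ± SD of a group. Pam3CSK4 replicates 1 to 3 are red, replicates 4 to 6 orange, and GM replicate 15 is a cross. All 6 Pam3CSK4 arrays of CCL20, SERPINA3, OLR1 and BCL2A1 lie above every GM array, while S100A12 and LORICRIN split into 2 sets of 3 and overlap with GM.

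Genes in the lists below were counted at an adjusted p under 0.05 with no limit on the fold, on the brightest probeset that names the gene alone. Over all probesets this holds for 717 (1.31%) higher and 469 (0.859%) lower, with a median change of -0.02. Over the 19775 genes it holds for 380 and 251. With the sets as a block the shares of all probesets are 0.419% higher and 0.0989% lower, and without GM replicate 15 they are 1.38% and 0.886%. The lists were chosen with earlier results of these data known, so the rank of a list among them is no independent finding.

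Of 18 receptors, adaptors and kinases of the TLR2 pathway, 4 rose and none fell, with a median change of 0.12. TLR2, the receptor that both lipopeptides use, had log2 signals of 9.69, 10.2 and 10.77 with Pam3CSK4 (lowest, median and highest array, as for all genes below) and 7.76, 8.48 and 9.67 in GM. All 6 Pam3CSK4 arrays lay above the 53 GM arrays, and the change was 1.72 (SE 0.17, limma adjusted p = 3.78e-13). The partners of TLR2 did not pass. TLR1 had 4.09, 4.84 and 5.41 with Pam3CSK4 and 1.74, 5.2 and 6.23 in GM, a change of -0.27 (SE 0.34, adjusted p = 0.832). TLR6 had 4.18, 5.86 and 6.45 with Pam3CSK4 and 3.8, 5.98 and 7.06 in GM, a change of -0.32 (SE 0.32, adjusted p = 0.775). Both sets of values overlapped throughout, and both genes had median signals below 6 in either group.

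IRAK2, a kinase that sustains signalling below the receptor, rose by 1.47 (SE 0.22, adjusted p = 1.46e-06), with 9.31 to 9.63 in Pam3CSK4 arrays and a GM median of 7.92. The GM range reached 10.04 in replicate 15 and 8.78 without it. NOD2, a cytoplasmic sensor of bacterial wall fragments, rose by 2.36 (SE 0.69, adjusted p = 0.0441), but not with the sets as a block (set-block p = 0.231). TAB3, which carries TAK1 to ubiquitin chains, rose by 0.39 (adjusted p = 0.00875, set-block p = 0.104). The adaptor MYD88 had a median of 11.74 with Pam3CSK4 and 11.23 in GM and missed the threshold (change 0.41, adjusted p = 0.0746). CD14, a coreceptor of lipopeptides, changed by -0.49 (SE 0.5, adjusted p = 0.781). MYD88 and CD14 were named after their values were seen.

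Subunits and inhibitors of NFκB moved more as a group. Of 18 measured, 10 rose and none fell (median change 0.61), and 9 rose with the sets as a block. TNFAIP3, which encodes the inhibitor A20, had 12.04, 12.29 and 12.38 with Pam3CSK4 and 9.26, 10.43 and 13.34 in GM, a change of 1.89 (SE 0.24, adjusted p = 1.28e-08). The GM value of 13.34 was that of replicate 15, and the next GM array had 10.92, below all 6 Pam3CSK4 arrays. NFKBIZ, an inducible regulator of secondary NFκB targets, rose by 1.76 (SE 0.22, adjusted p = 4.42e-09), with 10.64 to 10.99 in Pam3CSK4 arrays and 8.05 to 10.34 in GM. TNIP1, a partner of A20, rose by 1.65 (SE 0.17, adjusted p = 1.05e-12) and RELB, a subunit of the noncanonical pathway, by 1.31 (SE 0.18, adjusted p = 2.54e-07). For both, GM replicate 15 was the only GM array at or above the lowest Pam3CSK4 array. Outside these, NFKB2, CYLD, NFKB1, BIRC2 and NFKBIE rose by 1.19, 1.03, 0.78, 0.68 and 0.54. The subunits RELA and REL changed by 0.22 and 0.28 and missed the threshold (adjusted p = 0.591 and 0.468). NFKBIA, which encodes IκBα, rose by 0.95 (SE 0.28, adjusted p = 0.0419), and it is the 1 gene of the 10 whose call was lost with the sets as a block (set-block p = 0.218). These 8 genes were named after their values were seen.

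The chemokine CCL20 was the gene that rose most of all. It attracts CCR6-bearing T cells and dendritic cells to epithelia. It had 11.74, 12.21 and 12.65 with Pam3CSK4 and 2.69, 5.05 and 11.25 in GM. Every Pam3CSK4 array lay above every GM array, although GM replicate 15 came close and the next GM array had 9.71. The change was 6.66 (SE 0.66, adjusted p = 4.85e-13), or 101-fold, and 6.77 without GM replicate 15. Of 19 chemokines 8 rose and none fell, with a median change of 0.8, and 6 rose with the sets as a block. For 9 of the 19, GM replicate 15 was the highest GM array.

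CXCL10, which attracts T cells through CXCR3, had 10.24, 11.2 and 11.98 with Pam3CSK4 and 6.06, 7.62 and 13.67 in GM. Its change was 3.41 (SE 0.39, adjusted p = 4.07e-10). The GM maximum was again replicate 15, and the next GM array had 8.56, below all 6 Pam3CSK4 arrays. CXCL1, which attracts neutrophils, had 9.01, 9.82 and 11.01 with Pam3CSK4 and 4.53, 6.58 and 8.79 in GM, with no overlap and a change of 3.31 (SE 0.38, adjusted p = 2.54e-10). Its relatives CXCL2 and CXCL3 rose by 2.08 and 1.78, and CXCL11 by 2.65 (set-block p = 0.0595). CCL5 rose by 1.11 (set-block p = 0.319). CXCL9, CCL2 and CX3CL1, with changes of -0.25, 0.27 and -0.04, missed the threshold (adjusted p = 0.823, 0.796 and 0.964). The 7 genes from CXCL2 on were named after their values were seen.

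CXCL8, which encodes interleukin-8, was read by 2 probesets that disagreed among the GM arrays. On the brighter one it had 12.67, 12.76 and 12.83 with Pam3CSK4 and 6.94, 8.46 and 13.24 in GM, a change of 3.12 (SE 0.75, adjusted p = 0.00864). On that probeset 14 GM arrays had 12.89 to 13.24, above all 6 Pam3CSK4 arrays, while on the other these same 14 had 3.38 to 7.51. The second probeset had 9.92, 10.76 and 11.37 with Pam3CSK4 and a GM median of 6.27 with a GM maximum of 9.85, so the groups did not overlap. Its change was 4.54 (SE 0.57, adjusted p = 5.72e-09).

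Promoters are shown for 4 of the 8 chemokine genes that rose. CCL20 and CXCL8 were set by the plan, and CXCL1 and CXCL10 were picked because they hold a κB match. Each runs from 250 bases before to 50 bases after the start that RefSeq gives on GRCh38.p14, 5′ to 3′ on the strand of the gene, and capitals mark matches to the κB consensus or to the AP-1 motif TGANTCA on either strand. CCL20 (chr2:227813592-227813891, plus strand) had 1 κB match that starts 79 bases before the start, CXCL1 (chr4:73869143-73869442, plus strand) had 2 that overlap, at 79 and 78 bases before it, and CXCL10 (chr4:76023448-76023747, minus strand) had 2, at 177 and 122 bases. CXCL8 (chr4:73740319-73740618, plus strand) had 1 AP-1 match, at 137 bases before the start, and no match to the κB consensus in this window. The consensus used asks for GGG, a purine, any base, A or T, 2 pyrimidines and CC. The stretch tggaatttcc in the CXCL8 window differs from it in the first base only. The lack of a match therefore depends on the consensus chosen and does not show that a κB site is absent.
CCL20: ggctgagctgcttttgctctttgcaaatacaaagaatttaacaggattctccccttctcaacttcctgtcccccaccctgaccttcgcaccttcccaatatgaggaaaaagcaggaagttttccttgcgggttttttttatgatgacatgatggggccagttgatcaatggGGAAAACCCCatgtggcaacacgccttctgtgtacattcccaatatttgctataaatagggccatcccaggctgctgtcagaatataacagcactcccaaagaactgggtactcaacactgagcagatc
CXCL1: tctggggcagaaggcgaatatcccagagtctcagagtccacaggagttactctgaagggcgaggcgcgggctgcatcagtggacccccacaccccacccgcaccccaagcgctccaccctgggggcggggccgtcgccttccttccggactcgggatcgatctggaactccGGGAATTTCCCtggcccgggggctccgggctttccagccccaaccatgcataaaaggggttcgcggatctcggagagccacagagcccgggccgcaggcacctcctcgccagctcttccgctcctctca
CXCL10: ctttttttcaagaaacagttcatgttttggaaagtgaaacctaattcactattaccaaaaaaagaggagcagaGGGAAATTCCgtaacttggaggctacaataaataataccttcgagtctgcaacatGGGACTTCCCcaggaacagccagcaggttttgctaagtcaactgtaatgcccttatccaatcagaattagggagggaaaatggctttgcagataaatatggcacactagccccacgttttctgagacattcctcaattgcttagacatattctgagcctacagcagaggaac
CXCL8: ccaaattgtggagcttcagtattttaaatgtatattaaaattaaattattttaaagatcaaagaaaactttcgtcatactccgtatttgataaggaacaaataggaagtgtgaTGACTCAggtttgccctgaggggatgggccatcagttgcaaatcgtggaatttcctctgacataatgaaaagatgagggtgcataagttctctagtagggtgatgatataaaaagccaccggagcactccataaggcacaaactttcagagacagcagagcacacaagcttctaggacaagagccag

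Among all 27305 promoters of the RefSeq table, 5.72% held a κB match and 7.76% an AP-1 match. Of 173 genes whose brightest probeset was called higher, 132 had a promoter in the table, and 21 of these (15.9%) held a κB match and 26 (19.7%) an AP-1 match. Of 30 genes called lower, 28 had a promoter, with a κB match in 3 (10.7%) and an AP-1 match in 2 (7.14%). A match is a stretch of letters and was not tested as a binding site.

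Of 32 cytokines and growth factors, 12 rose and none fell (median change 0.86), 8 rose with the sets as a block, and 14 rose without GM replicate 15. IL36G, an epithelial cytokine of the IL-1 family, had 10.34, 11.21 and 12.06 with Pam3CSK4 and 5.34, 7.18 and 9.56 in GM. The groups did not overlap, and the change was 3.97 (SE 0.41, adjusted p = 2.32e-12). IL33, an alarmin, had 7.62, 8.75 and 10.21 with Pam3CSK4 and 4.48, 6.58 and 8.69 in GM, a change of 2.28 (SE 0.49, adjusted p = 0.0022). Here 13 of the 53 GM arrays reached the lowest Pam3CSK4 array. IL1A, already bright in GM, had 13.41, 13.49 and 13.54 with Pam3CSK4 and 8.67, 12.04 and 13.31 in GM, a change of 1.76 (SE 0.4, adjusted p = 0.00385). A second, dimmer IL1A probeset had a change of -0.12 (adjusted p = 0.885). TSLP, which primes dendritic cells, rose by 2.51 (SE 0.61, adjusted p = 0.00936), but not with the sets as a block (set-block p = 0.158).

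IL1B rose by 1.2 and the EGF receptor ligands TGFA, EREG and HBEGF by 0.96, 1.2 and 0.98, with set-block p-values of 0.0433, 0.0967 and 0.218 for the last 3. IL6, TNF and IL23A, which like IL1B are often named with TLR signalling in leukocytes, missed the threshold here. The changes were 0.33 for IL6, 0.54 for TNF and 0.93 for IL23A, with adjusted p = 0.738, 0.425 and 0.0503. These 7 genes were named after their values were seen.

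Decoys, antagonists and receptors of cytokines moved beside the ligands, with 6 of 18 higher and none lower (median change 0.6, 5 with the sets as a block). IL1R2, a decoy receptor for IL-1, had 8.63, 9.32 and 9.73 with Pam3CSK4 and 2.35, 6.21 and 9.61 in GM, a change of 2.98 (SE 0.48, adjusted p = 1.26e-05). The GM maximum was replicate 15, and 4 GM arrays reached the lowest Pam3CSK4 array. IL1RN, the antagonist of the IL-1 receptor, rose by 1.72 (SE 0.29, adjusted p = 3e-05), with 13.26 to 13.59 in Pam3CSK4 arrays and a GM median of 11.94. IL7R, the receptor chain shared by IL-7 and TSLP, rose by 2.37 (SE 0.24, adjusted p = 1.06e-12). IFNGR1, a chain of the interferon-γ receptor, changed by only 0.81 (SE 0.09, adjusted p = 2.22e-10), yet with 12.37 to 12.83 in Pam3CSK4 arrays and 11.42 to 12.25 in GM the groups did not overlap.

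Among antimicrobial and acute phase genes, 10 of 23 rose and none fell, with a median change of 1.12, and 4 rose with the sets as a block. SERPINA3, an inhibitor of neutrophil cathepsin G, had 10.74, 11.03 and 11.25 with Pam3CSK4 and 3.4, 6.3 and 8.24 in GM. The lowest Pam3CSK4 array lay well above the highest GM array, and the change was 5.12 (SE 0.54, adjusted p = 7.56e-12), or 34.8-fold. GM replicate 15 had 7.18 for this gene and did not stand out. SERPINA1, an inhibitor of neutrophil elastase, rose by 2.61 (SE 0.35, adjusted p = 5.6e-08) on its brightest probeset while the second missed the threshold (0.67, adjusted p = 0.134). PTX3, a soluble pattern recognition protein, rose by 2.8 (SE 0.49, adjusted p = 5.07e-05). CHI3L1, a chitinase-like lectin, rose by 2.38 (SE 0.7, adjusted p = 0.0452), with 3.96, 6.84 and 7.82 in Pam3CSK4 arrays and 0.93, 3.97 and 8.49 in GM. On this probeset the groups overlapped, 1 Pam3CSK4 array lay below the GM median, and the call was lost with the sets as a block (set-block p = 0.427). Of its other probesets, the second rose by 3.56 (SE 0.83, adjusted p = 0.00655) and the third missed the threshold (0.38, adjusted p = 0.856). RNASE7, an antimicrobial ribonuclease, rose by 1.87 (adjusted p = 6.67e-06), while LCN2 and SLPI had changes of 1.35 and 1.12 and missed the threshold (adjusted p = 0.448 and 0.141). These last 3 were named after their values were seen.

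Of 16 S100 proteins, small calcium-binding proteins, 4 rose and none fell (median change 0.17). S100A12, a ligand of RAGE that binds zinc and copper, had 9.64, 11.61 and 13.53 with Pam3CSK4 and 3.35, 7.11 and 13.27 in GM, a change of 4.03 (SE 0.85, adjusted p = 0.00162). The Pam3CSK4 arrays were not spread evenly: replicates 1, 2 and 3 had 9.64, 9.88 and 9.86, and replicates 4, 5 and 6 had 13.33, 13.53 and 13.4. At 9.64 or above lay 6 of the 53 GM arrays, and GM replicates 43 to 45 averaged 13.2. S100A7, an antimicrobial protein also called psoriasin, and S100A9, a subunit of calprotectin, rose by 3.27 and 2.29 (adjusted p = 0.0197 and 0.00886), and S100P by 2.21 (adjusted p = 0.0232). The calls of S100A7 and S100P were lost with the sets as a block (set-block p = 0.0636 and 0.0791) and without any 1 of Pam3CSK4 replicates 4, 5 or 6, with adjusted p of up to 0.0773 and 0.143. S100A8, the partner of S100A9, had a change of 1.16 and missed the threshold (adjusted p = 0.112), and was named after its values were seen.

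The promoters of SERPINA3 and S100A12, also set by the plan, are shown in the same window and with the same marks. They do not stand for the genes outside the chemokines. The promoters of PTX3 and CNFN, not shown, held 2 and 1 κB matches. SERPINA3 (chr14:94612141-94612440, plus strand) held neither motif, and S100A12 (chr1:153375572-153375871, minus strand) held 1 AP-1 match, which starts 57 bases before the start.
SERPINA3: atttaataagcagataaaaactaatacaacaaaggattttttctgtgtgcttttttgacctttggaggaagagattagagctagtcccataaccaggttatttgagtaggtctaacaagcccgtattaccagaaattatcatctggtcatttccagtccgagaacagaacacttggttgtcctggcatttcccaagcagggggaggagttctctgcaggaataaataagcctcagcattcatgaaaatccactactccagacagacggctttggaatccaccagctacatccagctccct
S100A12: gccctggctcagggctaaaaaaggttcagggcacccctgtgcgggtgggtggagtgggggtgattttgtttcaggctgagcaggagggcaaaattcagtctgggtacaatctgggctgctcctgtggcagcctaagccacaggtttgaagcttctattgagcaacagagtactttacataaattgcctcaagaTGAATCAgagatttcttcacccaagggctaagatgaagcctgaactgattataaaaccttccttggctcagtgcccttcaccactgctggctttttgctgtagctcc

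Genes of the cornified envelope, the protein shell that squamous cells build as they differentiate, had the highest median change of the lists, 1.89. Of 38 measured, 17 rose and none fell, and 8 rose with the sets as a block. LORICRIN, the main protein of the envelope, had 8.09, 10.7 and 13.11 with Pam3CSK4 and 2.08, 4.91 and 13.45 in GM. Its change was 5 (SE 1.13, adjusted p = 0.00414, set-block p = 0.0287), the groups overlapped, and 9 GM arrays reached the lowest Pam3CSK4 array. SPRR2G and SPRR2B, small proline-rich proteins of the envelope, rose by 4.43 (SE 0.95, adjusted p = 0.00213) and 3.78 (SE 0.63, adjusted p = 2.42e-05). CNFN, which encodes cornifelin, rose by 4.83 (SE 1.35, adjusted p = 0.0317), but not with the sets as a block (set-block p = 0.155) or without any 1 of replicates 4, 5 or 6 (adjusted p up to 0.151).

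In the same direction, 8 of 17 kallikreins, SPINK inhibitors and clade B serpins rose and none fell (median change 1.25, 5 with the sets as a block). SERPINB4, a squamous cell carcinoma antigen, had 9.37, 10.85 and 11.9 with Pam3CSK4 and 2.67, 6.49 and 10.86 in GM. Only 3 GM arrays reached the lowest Pam3CSK4 array, and the change was 4.09 (SE 0.63, adjusted p = 3.14e-06). SERPINB3, its close paralogue, rose by 2.23 (SE 0.56, adjusted p = 0.0142), and the probesets may read both genes. SPINK6, an inhibitor of kallikreins, rose by 2.44 (SE 0.4, adjusted p = 1.91e-05) and the protease KLK11 by 1.52 (SE 0.42, adjusted p = 0.0325, set-block p = 0.143). Of 14 keratins outside the cornified list, 2 rose and 1 fell. KRT75 rose by 2.19 (SE 0.38, adjusted p = 4.98e-05), KRT23 by 3.03 (SE 0.82, adjusted p = 0.0259, set-block p = 0.14), and KRT18, a keratin of simple epithelia, fell by 0.49 on the log2 scale (adjusted p = 0.0392, set-block p = 0.136).

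**Figure D2:**
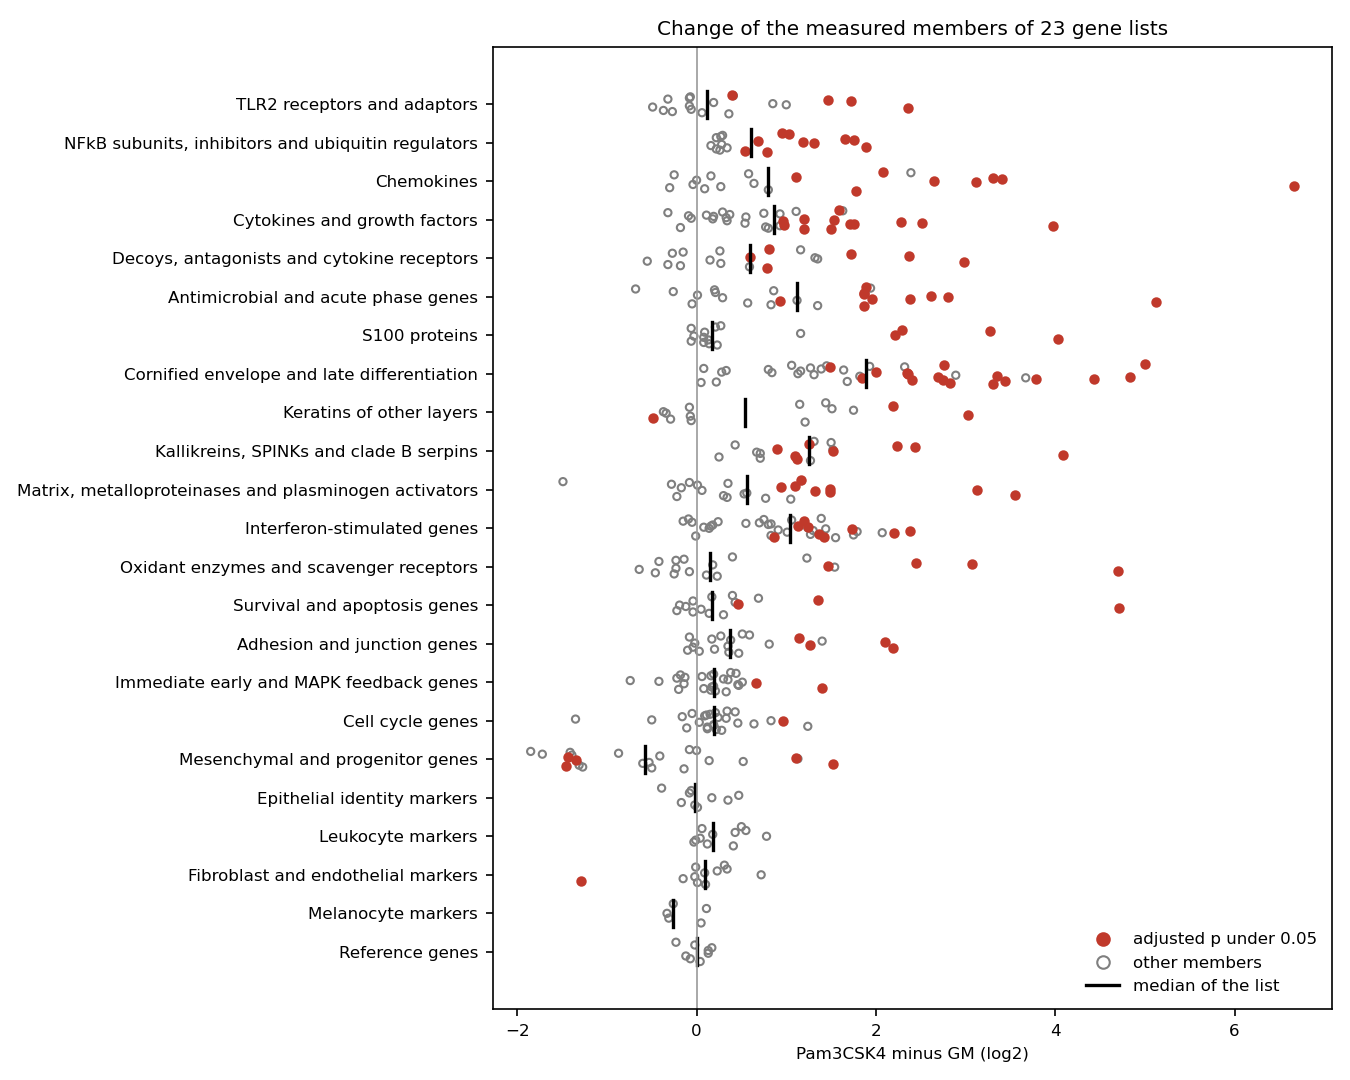
Log2 change, Pam3CSK4 minus GM (x axis), of every measured gene in each list (y axis), 1 point a gene, filled red where the adjusted p was under 0.05 and open where it was not, with a bar at the median of the list. The medians run from -0.57 for mesenchymal and progenitor genes to 1.89 for cornified genes, and the median over all genes is -0.01.

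Among matrix proteins and their proteases, 8 of 23 rose and none fell (median change 0.56, 6 with the sets as a block). MMP9, a gelatinase, had 13.24, 13.47 and 13.53 with Pam3CSK4 and 8.24, 9.53 and 12.38 in GM, without overlap, and a change of 3.55 (SE 0.42, adjusted p = 1.28e-09). MMP13, a collagenase, rose by 3.13 (SE 0.39, adjusted p = 6.77e-09) at dim signals, with a median of 6.2 with Pam3CSK4 and 2.81 in GM. LOX, which crosslinks collagen, and MMP10, a stromelysin, each rose by 1.49 (adjusted p = 0.0108 and 0.0196, set-block p = 0.0453 and 0.0771). MMP1 and MMP3, with changes of 1.05 and 1.17, missed the threshold (adjusted p = 0.514 and 0.19), and both were named after their values were seen.

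Of 18 oxidant enzymes and scavenger receptors 4 rose, the same number with the sets as a block, and none fell (median change 0.15). OLR1, the receptor LOX-1 for oxidized lipoprotein, had 12.84, 12.92 and 13.1 with Pam3CSK4 and 6.56, 8.17 and 12.48 in GM. All 6 arrays lay above the GM range, where the highest was replicate 15, and the next GM array had 10.14. The change was 4.7 (SE 0.35, adjusted p = 1.71e-19), or 26.1-fold. STEAP4, a metalloreductase, rose by 3.07 (SE 0.46, adjusted p = 1.58e-06), SOD2, the mitochondrial superoxide dismutase, by 2.45 (SE 0.33, adjusted p = 7.34e-08), and GCH1, which makes tetrahydrobiopterin, by 1.47 (SE 0.3, adjusted p = 0.00092). PTGS2, the inducible cyclooxygenase, had a change of 1.54 but missed the threshold (adjusted p = 0.104), and was named after its values were seen.

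Of 15 survival and apoptosis genes, 3 rose and none fell (median change 0.17). BCL2A1, an antiapoptotic member of the BCL2 family, had 10.77, 11.16 and 11.55 with Pam3CSK4 and 4.97, 6.51 and 10.52 in GM. The groups did not overlap, the GM maximum was replicate 15, and the next GM array had 7.76. The change was 4.71 (SE 0.35, adjusted p = 1.71e-19). CFLAR, the FLIP inhibitor of caspase-8, rose by 1.35 (SE 0.17, adjusted p = 1.68e-08), and the proapoptotic BAK1 by 0.46 (adjusted p = 0.0339, set-block p = 0.182). Of 20 adhesion and junction genes, 4 rose and none fell (median change 0.37, 2 with the sets as a block). ICAM1, which binds leukocyte integrins, had 10.78, 10.89 and 11.16 with Pam3CSK4 and 7.89, 8.48 and 10.44 in GM, without overlap, a change of 2.19 (SE 0.26, adjusted p = 9.46e-10). The tight junction protein CLDN1 rose by 2.1 (SE 0.4, adjusted p = 0.000305), and MPZL2, an adhesion molecule of the immunoglobulin family, by 1.14 (adjusted p = 0.0171, set-block p = 0.0771). The desmosomal cadherin DSC2 rose by 1.26 (adjusted p = 0.0485), and its call was lost without GM replicate 15 (adjusted p = 0.0508), with the sets as a block (0.14) and without any 1 Pam3CSK4 array (up to 0.199).

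Interferon-stimulated genes had a median change of 1.04, with 9 of 36 higher and none lower, but only 2 with the sets as a block, and 11 without GM replicate 15, which was the highest GM array in 29 of the 36. The 2 that held were GBP1, a guanylate-binding GTPase, and SAMD9, an antiviral factor. GBP1 had 11.34, 12.17 and 13.16 with Pam3CSK4 and 7.91, 10.02 and 12.99 in GM, a change of 2.2 (SE 0.43, adjusted p = 0.000578). SAMD9 rose by 1.73 (SE 0.26, adjusted p = 2.93e-06), with 11.73 to 12.01 in Pam3CSK4 arrays and a GM median of 10.01. RSAD2, which encodes the antiviral enzyme viperin, rose by 2.38 (SE 0.64, adjusted p = 0.0219, set-block p = 0.118), with 26 of the 53 GM arrays at or above its lowest Pam3CSK4 array. IFIH1, the RNA sensor MDA5, rose by 1.42 (SE 0.4, adjusted p = 0.0323, set-block p = 0.12). ISG15 and IRF1, with changes of -0.09 and -0.01, missed the threshold (adjusted p = 0.972 and 0.99) and were named after their values were seen.

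Of 25 immediate early and MAP kinase feedback genes, 2 rose and none fell (median change 0.19), where 1.31% of all probesets rose. DUSP1, a phosphatase that restrains MAP kinases, rose by 1.4 (SE 0.31, adjusted p = 0.00278). The transcription factor KLF6 rose by 0.66 (adjusted p = 0.0263, set-block p = 0.107). Of 25 cell cycle genes only CDKN1A, which encodes the inhibitor p21, passed, with a rise of 0.96 (adjusted p = 0.0369, set-block p = 0.135).

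Few genes fell. Of 22 mesenchymal and progenitor genes 3 fell and 2 rose. Their median change of -0.57 was the lowest of the lists, which were chosen with earlier results known. IGFBP6, a binding protein of IGF2, had 9.72, 10.38 and 11.34 with Pam3CSK4 and 10.03, 12.05 and 13.04 in GM, a change of -1.43 (SE 0.3, adjusted p = 0.00156). UCHL1, a deubiquitinase, had 9.71, 9.82 and 10.05 with Pam3CSK4 and 9.69, 10.88 and 13.21 in GM, a change of -1.34 (SE 0.33, adjusted p = 0.0105), while its dimmer second probeset changed by 0.06. The neuronal membrane protein SLITRK6 changed by -1.46 (SE 0.39, adjusted p = 0.0209, set-block p = 0.0823), and IGFBP3, another IGF-binding protein, rose by 1.52 (SE 0.34, adjusted p = 0.00346).

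Over all genes, PIK3C2B, a class II phosphoinositide 3-kinase, fell most. It had 5.87, 6.71 and 7.1 with Pam3CSK4 and 6.16, 9.31 and 10.82 in GM, a change of -2.47 (SE 0.41, adjusted p = 2.18e-05). GM replicate 15 was the lowest GM array. TNRC6B, a scaffold of microRNA silencing, had 7.68 to 8.47 with Pam3CSK4 and 8.65 to 10.54 in GM on its brightest probeset, so the groups did not overlap, and a change of -1.43 (SE 0.21, adjusted p = 1.11e-06). Its other 6 probesets changed in the same direction, by -0.41 to -1.51, and 1 of them passed. SAMD13 changed by -1.78 (SE 0.29, adjusted p = 1.74e-05). NRG4, a ligand of ERBB4, changed by -2.43 at a Pam3CSK4 median of 2.98 and a GM median of 5.65, both dim, and lost its call with the sets as a block (set-block p = 0.165). So did ZNF804A, LINC02593, NKAPP1 and MTARC1 (changes -2.07, -1.76, -1.72 and -1.47, set-block p = 0.323, 0.595, 0.488 and 0.181). These 4 and NRG4 also lost their calls when certain single Pam3CSK4 arrays were left out, with adjusted p of up to 0.214, 0.157, 0.0911, 0.051 and 0.0509. Among the 15 genes that rose most were also WAKMAR2, COXFA4L3 and LINC01127, in none of the lists, with changes of 4.47, 3.55 and 3.45 (adjusted p = 0.00462, 6.53e-09 and 1.12e-06).

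The 2 sets of Pam3CSK4 arrays were then set side by side. Replicates 1 to 3 alone gave 212 probesets higher (0.388%) and 77 lower (0.141%) than GM, and replicates 4 to 6 alone gave 280 (0.513%) and 93 (0.17%). Of the 321 probesets called with all 6 arrays, 128 were also called by the first set alone and 169 by the second, and 318 had the same sign in both. The difference between the sets was not tested, and what a set is cannot be read from the labels. The sets also differed in the 3′ over 5′ signals of ACTB and GAPDH given above.

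The cornified genes differed most in level. All 38 cornified genes had a larger change in replicates 4 to 6, with a median of 0.47 in replicates 1 to 3 and 3.6 in replicates 4 to 6, where 27509 of the 54613 probesets had a larger change in the second set. None of the 38 rose in the first set alone and 23 did in the second. Of all probesets, 0.564% rose and 0.33% fell in the first set at an adjusted p under 0.05, and 0.65% rose and 0.311% fell in the second. LORICRIN changed by 2.67 in replicates 1 to 3 (adjusted p = 0.622) and by 7.32 in replicates 4 to 6 (adjusted p = 0.00271). GM replicates 43 to 45, with a mean of 13.35, were as bright for LORICRIN as the second set, whose mean was 12.98.

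All 36 interferon-stimulated genes went the other way, with a larger change in replicates 1 to 3 (median 1.69, 11 higher) than in replicates 4 to 6 (median 0.22, 1 higher). RSAD2 changed by 4.05 in the first set and by 0.72 in the second, and GBP1 by 3.02 and 1.39. IL33 followed the same pattern, with 3.43 in the first and 1.14 in the second.

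The 18 NFκB genes had medians of 0.58 in replicates 1 to 3 and 0.65 in replicates 4 to 6, with 7 higher in each. CCL20 changed by 6.3 in the first set and 7.03 in the second, SERPINA3 by 5.02 and 5.22, OLR1 by 4.76 and 4.64, and MMP9 by 3.61 and 3.48. Others lay further apart, with 2.22 and 5.84 for S100A12, 2.47 and 4.15 for CXCL1 and 3.17 and 4.77 for IL36G. CXCL1 and IL36G passed in each set alone. S100A12 passed in the second set (limma adjusted p = 0.00119) but not in the first (0.55).

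**Figure D3:**
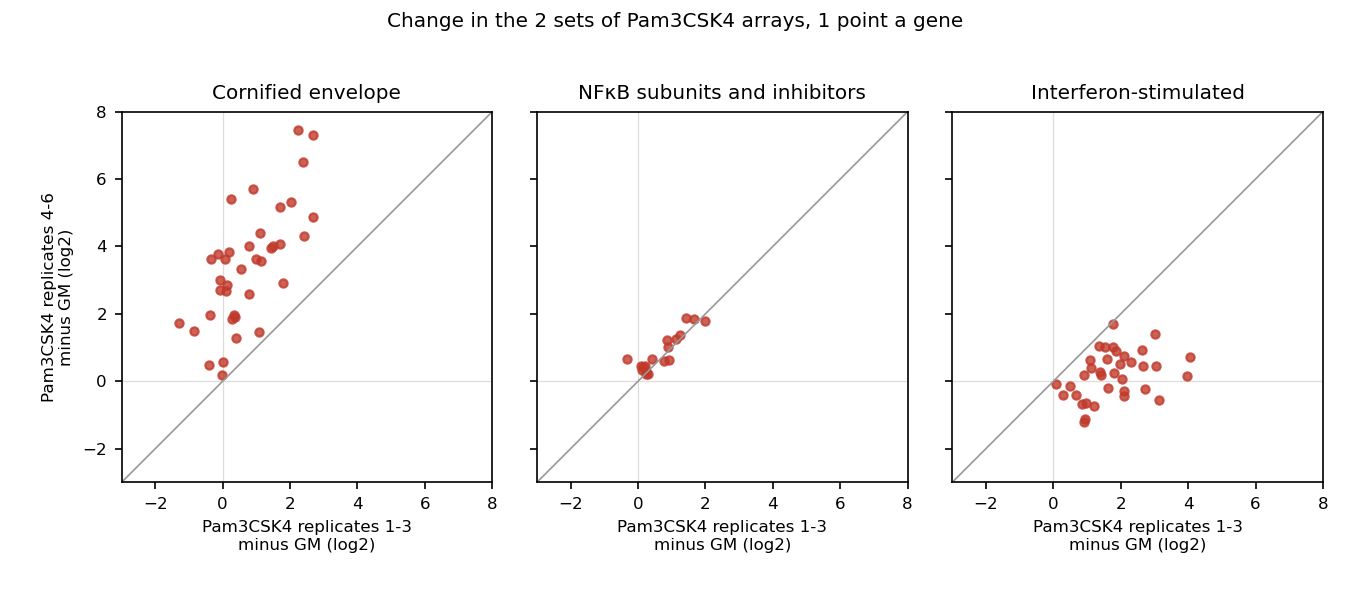
Log2 change from GM in Pam3CSK4 replicates 1 to 3 (x axis) and replicates 4 to 6 (y axis) for the cornified (left), NFκB (middle) and interferon-stimulated genes (right), 1 point a gene, with the line of equal change. All 38 cornified genes lie above the line, all 36 interferon-stimulated genes lie below it, and the 18 NFκB genes lie on both sides of it.

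Pam3CSK4 was compared last with MALP2, the other TLR2 lipopeptide, and with TNF-α, which acts through its own receptor. The doses of the lipopeptides differed, 10 µg/ml for Pam3CSK4 and 200 ng/ml for MALP2, so compound and dose cannot be told apart. In the limma fit of all groups 35 probesets (0.0641%) were higher and 30 (0.0549%) lower with Pam3CSK4 than with MALP2, and 3991 had an unadjusted p under 0.05. With no limit on the fold 0.112% were higher and 0.0989% lower. Against TNF-α none was called in either direction (0% higher and 0% lower, with or without the limit on the fold), with 2788 at an unadjusted p under 0.05 and 2 called without quantile normalization. The 95% interval of a difference had a median half-width of 0.77 against MALP2 and 0.81 against TNF-α.

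Of the genes called in that fit, IL13RA2, a decoy receptor of IL-13, averaged 5.69 ± 1.32 with Pam3CSK4 and 9.75 ± 0.34 with MALP2 (SD, n = 6 each), a difference of -4.06 (SE 0.9, adjusted p = 0.0189). The chemokine CCL4 averaged 4.24 ± 0.62 with Pam3CSK4 and 7.76 ± 0.93 with MALP2, a difference of -3.52 (SE 0.34, adjusted p = 1.18e-12). The decoy IL1R2 was lower with Pam3CSK4 by 2.77 (SE 0.65, adjusted p = 0.0309), though it was higher than GM with both. MGAM, an intestinal glucosidase, KRT33A, a hair keratin, and EDN1, which encodes endothelin-1, differed by -4.17, -3.64 and -2.28. In the other direction, WNT5A averaged 8.55 ± 0.19 with Pam3CSK4 and 7.08 ± 0.17 with MALP2, a difference of 1.48 (SE 0.18, adjusted p = 4.17e-08). Pam3CSK4 and GM did not differ detectably for WNT5A (0.13, adjusted p = 0.788), nor for F2R, the thrombin receptor PAR1 (-0.51, adjusted p = 0.47), which differed from MALP2 by 1.66. SESN3 and MPHOSPH9 each differed from MALP2 by 1.4. MUCL1 and LCE1B were higher than with MALP2 by 3.26 and 1.93 (adjusted p = 0.0326 and 0.0336), with Pam3CSK4 changes from GM of 0.19 and 0.07 in replicates 1 to 3 and 5.05 and 3.63 in replicates 4 to 6. Both lost the call without any 1 of replicates 4, 5 or 6 (adjusted p up to 0.177 and 0.212). IL1R2 and SESN3 lost it without any 1 of replicates 1, 3, 4, 5 or 6 (up to 0.0854 and 0.111), MPHOSPH9 without 4, 5 or 6 (up to 0.0688), F2R without 1, 5 or 6 (up to 0.0593) and IL13RA2 without 5 or 6 (up to 0.0803). With the sets as a random block, WNT5A, CCL4, KRT33A and MGAM kept their calls, and the other 8 did not (set-block p between 0.0817 and 0.697).

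Arrays of the same set deviated together across the 3 treatments, weakly over all probesets and more at bright ones. Over all 54613 probesets, the deviations of Pam3CSK4 arrays from their group mean correlated with those of MALP2 arrays at 0.05 to 0.13 for the same number, at 0.04 to 0.1 for another number of the same set and at -0.12 to -0.04 across sets. With TNF-α arrays the values were 0.06 to 0.16, 0.02 to 0.14 and -0.1 to -0.05. Over the 16952 probesets with a mean log2 signal of at least 8, the values with MALP2 were 0.27 to 0.52, 0.26 to 0.46 and -0.51 to -0.2. With TNF-α arrays they were 0.39 to 0.51, 0.31 to 0.53 and -0.54 to -0.39. Deviations from a group mean cancel out, so positive values within sets bring negative ones across sets, which add no evidence. After these values were seen, Pam3CSK4 was compared with each of the other 2 on their own arrays with the set as a block, and the p-values of these fits measure the spread inside the sets.

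Within shared sets 195 probesets (0.357%) were higher and 202 (0.37%) lower with Pam3CSK4 than with MALP2, and 92 (0.168%) higher and 30 (0.0549%) lower than with TNF-α. Within sets SERPINA3 was higher with Pam3CSK4 than with both. Its means in replicates 1 to 3 and in the later set were 10.92 and 11.13 with Pam3CSK4, 7.81 and 8.95 with MALP2, and 6.13 and 9.15 with TNF-α. The difference within sets was 2.64 from MALP2 (95% interval 2.26 to 3.03, adjusted p = 0.000135) and 3.54 from TNF-α (2.33 to 4.75, adjusted p = 0.0265). LORICRIN differed by 3.24 from MALP2 and 3.62 from TNF-α (adjusted p = 0.0133 and 0.0118), and S100A12 by 1.26 and 2.43 (adjusted p = 0.00101 and 0.000818). MMP9 was 1.87 higher than with MALP2 (1.34 to 2.39, adjusted p = 0.00266) and 0.65 above TNF-α (0.18 to 1.12, adjusted p = 0.188). In the limma fit of all groups these genes were not called. There the adjusted p against MALP2 and TNF-α was 0.101 and 0.0857 for SERPINA3 and 0.617 and 0.894 for LORICRIN. For S100A12 it was 0.904 and 0.938, and for MMP9 it was 0.192 against MALP2.

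**Figure D4:**
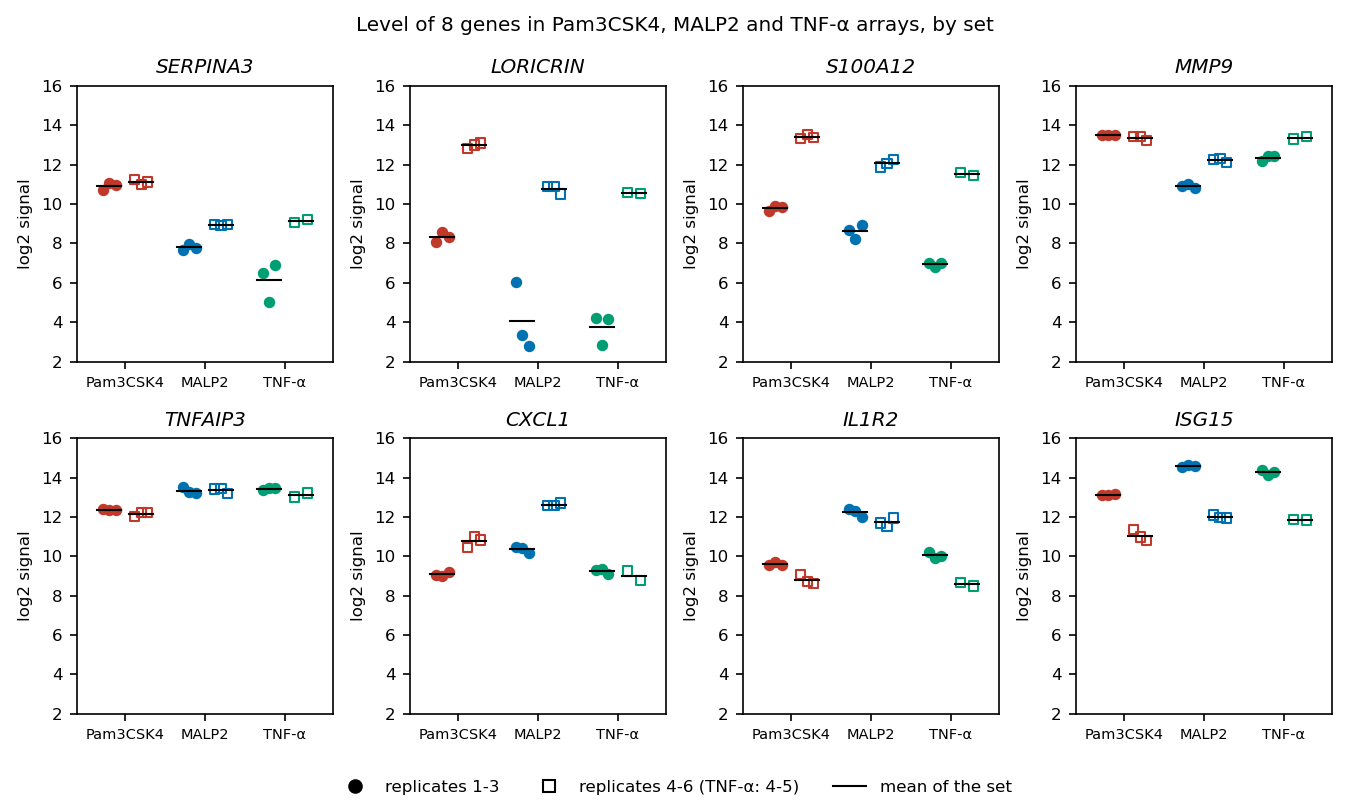
Log2 signal (y axis) of 8 genes in Pam3CSK4, MALP2 and TNF-α arrays (x axis), 1 point an array, filled circles for replicates 1 to 3, open squares for the later set, and bars at the set means. SERPINA3 is higher in all 6 Pam3CSK4 arrays than in every MALP2 and TNF-α array, while TNFAIP3 and ISG15 are lower than in both treatments set for set.

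Of the 18 NFκB genes none was higher and 2 were lower with Pam3CSK4 than with MALP2, at an adjusted p under 0.05 within sets, where 1.45% of all probesets were higher and 1.45% lower. Against TNF-α 1 was higher and 2 were lower. CCL20 differed from MALP2 by -0.1 within sets (95% interval -0.37 to 0.16, adjusted p = 0.712), and RELB by 0.25 (0.03 to 0.48, adjusted p = 0.228). TNFAIP3 was lower than with MALP2 by 1.08 and lower than with TNF-α by 1.01 (adjusted p = 0.000522 and 0.00151). TLR2 differed by -0.81 from MALP2 (-1.07 to -0.55, adjusted p = 0.00572) and by 0.25 from TNF-α (-0.02 to 0.53, adjusted p = 0.36). BCL2A1 lay between the other 2, with -1.16 from MALP2 and 1.08 from TNF-α (adjusted p = 0.00218 and 0.0165). Of 19 chemokines 1 was higher and 6 were lower with Pam3CSK4 than with MALP2. CXCL1 was among the lower ones (-1.57, adjusted p = 0.000541). In the limma fit of all groups none of the NFκB genes or chemokines passed against MALP2 or TNF-α. TLR2 and BCL2A1 missed the threshold against MALP2 there too (adjusted p = 0.117 and 0.498).

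Within sets, interferon-stimulated genes were the list most often lower. Of 36, 16 were lower and none higher than with MALP2 (median difference -0.62), and 5 were lower and none higher than with TNF-α (median -0.5), where 0.172% of all probesets were lower and 0.401% higher. IFI6 differed by -1.58 from MALP2 and -1.2 from TNF-α (adjusted p = 0.000374 and 0.0223), ISG15 by -1.2 and -0.98 (adjusted p = 0.00102 and 0.0137). Cornified genes ran the other way against TNF-α, with 11 of 38 higher and none lower (median 1.23), and were mixed against MALP2, with 6 higher and 4 lower (median 0.42). SPRR2G, for example, was 2.09 higher than with TNF-α (adjusted p = 0.000724) and differed by 0.17 from MALP2 (adjusted p = 0.561). The keratin KRT75 was 1.69 higher than with TNF-α and differed by -0.42 from MALP2 (adjusted p = 0.000275 and 0.123). NFKBIA was lower than with TNF-α by 1.11 (adjusted p = 0.0152) and differed by -0.41 from MALP2 (adjusted p = 0.206). IFI6, ISG15 and NFKBIA were named after their values were seen. In the limma fit of all groups 1 interferon-stimulated gene was lower and none higher than with MALP2. Of the cornified genes 1 was higher and none lower than with MALP2 in that fit. None of either list passed there against TNF-α, so these contrasts rest on the fits within sets.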

How the data were processed

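Affymetrix U133 Plus 2.0 arrays measured RNA of Vk2/E6E7 cells. The authors deposited log2 values, a signal per probeset and array, and these were used. MAS5 and GCOS 1.3 stand in the submitters' processing notes, whereas the methods describe RMA in GeneSpring. Turned back to linear signals, 100% of the values lie on steps of 0.1, the form of MAS5 output, whose noise at dim probesets widens folds there. The values were quantile normalized over the arrays used and fitted in limma 3.58.1 (R 4.3.3, with the data.table package, version 1.17.8) with 1 mean per group over 8 groups, with no filter on dim probesets. P-values were adjusted by Benjamini-Hochberg over 54613 probesets, without 62 control probesets. The number of arrays limits the precision. The platform annotation gives 1 gene to 41097 probesets, several to 1801 and none to 11777, so some list members have no value. Promoters were read in Python 3.11.15 (pandas 2.3.3), and figures drawn with matplotlib 3.10.9. The fit of Pam3CSK4 against GM was tested on simulated data, drawn as independent normal values without sets. The other steps were not part of that test.

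The 4 given markers, the 15 largest rises and the 10 largest falls (called, with at least 5 of 6 Pam3CSK4 arrays beyond the GM median), the 4 largest passing changes of each of 23 lists, TLR1, TLR2, TLR6 and GAPDH, and the 6 highest and 6 lowest called genes of each comparison of treatments were named. The members and lists were chosen with earlier results of these data known. Alternatives were the values without quantile normalization, an offset of 16 on the signal, a mean log2 of at least 6, the arrays of the 2 groups only, all 105 arrays, GM replicates 1 to 6 as the only controls, each Pam3CSK4 array left out, each set of Pam3CSK4 arrays, sets as a random block, the second probeset and the methods' analysis of variance. Leaving out GM replicate 15 and the block of shared sets were chosen after seeing the data.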

Additional observations from a re-analysis of the deposited data

Results flagged for a closer look

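A Pam3CSK4 array lay apart from the other 5 in 3 of the 91 named genes, where chance alone gives about 1 in 20. GAPDH had 14.19 in Pam3CSK4 replicate 5, its lowest array, and 14.28 to 14.31 in the other 5. MMP9 had 13.24 in replicate 6, its lowest, and 13.43 to 13.53 in the others. SAMD9, an antiviral factor, had 12.01 in replicate 1, its highest, and 11.73 to 11.81 in the others. In all 3 genes the other 5 arrays lay close together.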

How the results depend on the processing

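The counts of called probesets moved with the choice of controls and with the treatment of sets. Against 321 higher and 79 lower than GM, the counts were 1529 and 1646 when GM replicates 1 to 6 alone served as controls (250 and 46 of them shared with the first), and 1044 and 1178 when these also had a replicate block, although same-numbered Pam3CSK4 and GM arrays did not deviate together (r from -0.05 to -0.01). The cause was not tested. Pam3CSK4 replicates 1 to 3 alone gave 212 higher, sets as a random block 145 and 11, and the methods' analysis of variance 578 and 263. Lower calls numbered 134 without quantile normalization, 33 with an offset of 16 and 40 with all 105 arrays. Leaving out 1 Pam3CSK4 array gave 222 to 262 higher and 52 to 60 lower, with 52 without replicate 2, and leaving out GM replicate 15 gave 329 and 80. Against MALP2 the count of 65 became 164 on the arrays of the 2 groups, 397 with shared sets as a block, 14 with sets as a random block, and 34 to 53 without 1 array (43 without replicate 1 or 3, 34 without replicate 5). With the replicate numbers as a block it was 74. Against TNF-α the count of 0 became 2 without quantile normalization, 2 with the offset, 17 on the arrays of the 2 groups, 122 with shared sets as a block, and 0 to 4 without 1 array (4 without replicate 1), and it was 0 with a replicate block. The sign turned for IL1A (-0.12) and UCHL1 (0.06) on their second probesets, where SERPINA1, IRAK2, TNIP1, DUSP1, RSAD2, MPZL2, TNRC6B and LINC02593 kept their direction but missed the threshold (0.67, 0.39, 0.24, 0.34, 1.8, 0.45, -0.77 and -0.08), for TLR1 (0.66) with GM replicates 1 to 6 as controls in both fits, and for TLR6 (0.08) with replicates 4 to 6 alone. Of 77 named genes that passed against GM, 25 lost the call with sets as a block and 25 without at least 1 Pam3CSK4 array. Without 4, 5 or 6 these were CNFN, SERPINB3, KLK11, S100A7, S100P, KRT23 and SLITRK6 (adjusted p up to 0.156), and without 1, 2 or 3 they were MMP10, RSAD2 and IFIH1 (up to 0.148). NOD2, DSC2, KLF6 and KRT18 lost it without any 1 array. LOX, MPZL2, BAK1, CHI3L1, CDKN1A, KDR and 5 of the genes that fell most lost it without certain arrays (up to 0.216). Dim probesets limit what can be read, and 90 of the 321 higher and 30 of the 79 lower probesets had a GM mean below a log2 signal of 6.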
